A study of Mus musculus with 16 samples.

Results

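The effect of BMS493 on the fetal mouse lung was estimated over both strains at once, from all 16 of the 16 libraries of the series. Whole lungs of male fetuses were taken at E14.5, the age in days of embryonic development, from the inbred strains C57BL/6J (B6) and A/J. Dams received BMS493, which acts as an inverse agonist on every retinoic acid receptor, orally at a daily 3.75 µg per g between E9.5 and E14.5, and control dams received corn oil. Each combination of strain and treatment had 4 libraries, so 8 BMS493 libraries were set against 8 control libraries with strain as a covariate. The labels give no engineered allele for any group, and the agent given to the dam is what differs within a strain. Which fetuses came from the same dam, and whether lungs were pooled, is not given in the labels, so p-values measure the spread between these libraries, and fetuses of 1 litter would share a dose.

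Retinoic acid is made from vitamin A and enters the nucleus, where it binds receptors (RAR) that sit on DNA with a partner receptor (RXR). Without ligand the receptors hold corepressors, and with ligand they exchange them for coactivators. An inverse agonist strengthens the hold on corepressors and so lowers transcription from genes that carry retinoic acid response elements. Several such genes act in the pathway itself, since they store, destroy or receive retinoids. In the embryo the pathway sets the anterior limits of Hox genes, and in the lung it takes part in budding and in the differentiation of airway smooth muscle.

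A response element is typically a pair of half-sites in direct repeat with a short spacer. Of 11664 tested genes with an entry in the RefSeq promoter table (build GRCm38.p6, 250 bases before to 50 bases after the start), 8 held a direct repeat of half-sites with a spacer of 5 bases, on either strand, which is 0.0686%. A half-site here was the sequence AGGTCA, its variant sequence AGTTCA, the further variant sequence GGGTCA or the remaining variant sequence GGTTCA, in any combination. Of 144 such genes that were lower with BMS493 in the pooled contrast, 2 did (1.39%). With a spacer of 1 or 2 bases 0 of the 144 did, against 0.274% and 0.103% of the 11664, so any of the 3 spacers was found in 1.39% against 0.446%. They are shown because they are the retinoic acid receptor gene Rarb and the cytokine gene Tnfsf13b, both lower with BMS493 in each strain by itself. Capitals mark only the half-sites of the matched repeat, and a half-site outside it stays in small letters. The repeat begins 53 bases before the start in Rarb (chr14:16575483-16575559, minus strand) and 222 bases before it in Tnfsf13b (chr8:10006217-10006291, plus strand).
Rarb: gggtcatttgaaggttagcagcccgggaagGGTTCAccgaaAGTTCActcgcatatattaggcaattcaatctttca
Tnfsf13b: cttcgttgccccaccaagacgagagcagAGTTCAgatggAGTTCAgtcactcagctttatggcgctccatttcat
None of the 41 higher genes with an entry and none of the 114 genes called only after pooling held a direct repeat of these half-sites with a spacer of 1, 2 or 5 bases in this window, against 0.446% of the 11664. A match describes letters and not binding, and sites outside the window were not searched.

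Between 15207539 and 24146224 fragments per library were assigned to genes, and 17276 of 57180 genes passed the filter on low counts. The labelled tissue was checked with marker lists: 11 of 12 distal lung epithelium genes and 14 of 14 lung mesenchyme genes were measured, with summed levels of 759 to 2005 and 6642 to 17556 counts per 1000000 assigned fragments (CPM, scaled by TMM). The mesenchyme sum mostly follows its matrix genes Col1a1, Col3a1, Col1a2 and Eln, which hold the highest counts of that list. After the means of the groups were removed, BMS493 replicate 3 of B6 lay farthest from the others on the first principal component (16.6% of the remaining variance), and the summed mesenchyme level of B6 with BMS493 spanned 9477 to 17556 CPM against 10887 to 11307 in B6 controls. Without that library 289 genes were called in place of 255. On the second component BMS493 replicate 2 of B6 lay farthest from the others, and without it 235 genes were called.

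Across 8 against 8 libraries, 255 of 17276 genes were called at an adjusted p under 0.05 (1.48%), 54 higher with BMS493 (0.313%) and 201 lower (1.16%). The median log2 fold change of all tested genes was 0.0016, so higher and lower are relative to a centre near 0. Only 40 of the calls had a log2 change of 1 or more in size, and the largest decreases were those of Lrat, which esterifies retinol, and the retinoic acid hydroxylase Cyp26b1. Within a strain, 4 against 4 libraries called 73 B6 genes (0.423%) and 84 A/J genes (0.486%), with 128 in either strain and 29 in both. All 29 were also called after pooling. Single libraries moved some of these counts: the 54 higher calls became 31 without B6 control replicate 2, 32 without A/J BMS493 replicate 2 and 111 without B6 BMS493 replicate 1. The 73 calls in B6 became 27, 28, 37 and 35 without B6 control replicates 1, 2, 3 and 4, 32 without B6 BMS493 replicate 2 and 201 without B6 BMS493 replicate 1, and the 84 calls in A/J became 55 without control replicate 1 or 2 of that strain and 52 without its BMS493 replicate 3. The pooled and the single-strain contrasts share libraries, so their values below are set side by side and are not independent of each other.

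Pooling added 146 genes that neither strain called by itself (0.845% of all tested), 42 higher and 104 lower. The count was 94 without A/J BMS493 replicate 2, and its 42 higher genes became 20 without that library, 21 without B6 control replicate 2, 27 and 26 without A/J control replicates 2 and 4, and 67 without B6 BMS493 replicate 1. The 146 made up 77.8% of the higher calls and 51.7% of the lower calls. Their changes were small: the median size was 0.37 on the log2 scale (1.30-fold), 103 of the 146 lay under 0.5, and 14 reached 1. The 109 genes called after pooling and also in a strain had a median size of 0.46. The standard error (SE) here was the size of the log2 change divided by the square root of the F statistic of its edgeR test. For the pooled change it was a median of 0.70 of the SE in B6 and 0.70 of that in A/J over all tested genes. At a mean of 100 CPM or more the median SE was 0.045 after pooling against 0.065 in B6 and 0.064 in A/J, and the smallest called change was 0.16. At 1 to 10 CPM the median SE was 0.16 after pooling, and no change under 0.32 was called.

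**Figure D1:**
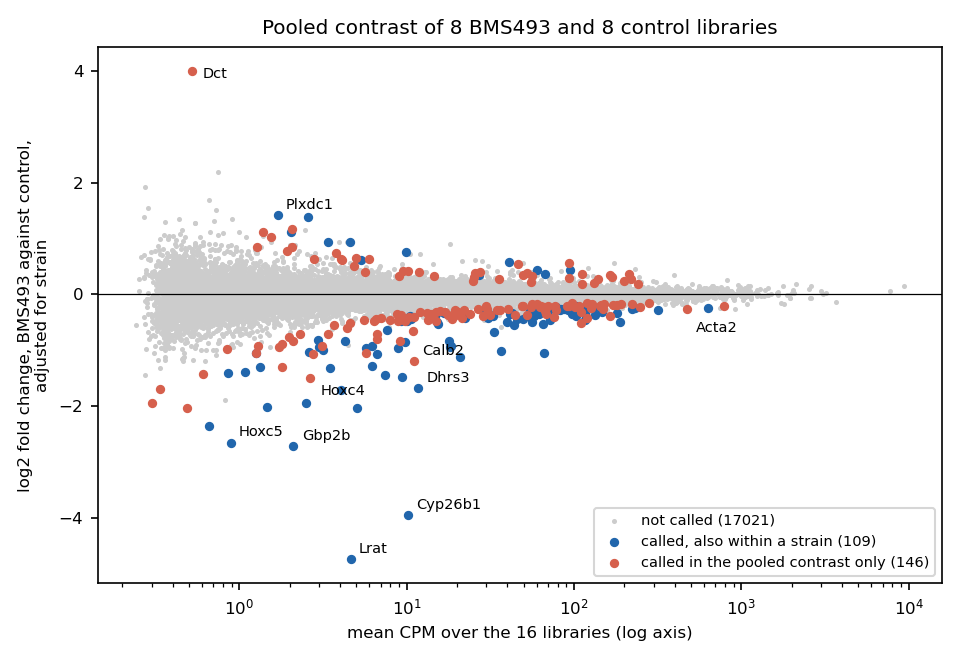
Log2 fold change of BMS493 against control, adjusted for strain (vertical axis), against the mean CPM over 16 libraries (horizontal log axis), 1 point per tested gene. Grey points are genes not called, blue the 109 called also within a strain and red the 146 called only after pooling, 103 of which lie within 0.5 of 0; Lrat and Cyp26b1 lie lowest.

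Of the 146 genes, 125 had an unadjusted p under 0.05 in both strains, 7 in B6 alone and 14 in A/J alone. The difference between the strains had an unadjusted p under 0.05 for 0 of them, which follows in part from the choice of genes that only the pooled model calls. By edgeR, 636 of all tested genes had such a p for the difference between strains and 1, Gbp2, passed the adjusted threshold (0.00579%). Control and BMS493 libraries did not overlap in both strains for 34 of the 146, which were chosen by their p-values. Over all tested genes 116 (0.671%) separated in both strains in the same direction, 96 of them called.

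**Figure D2:**
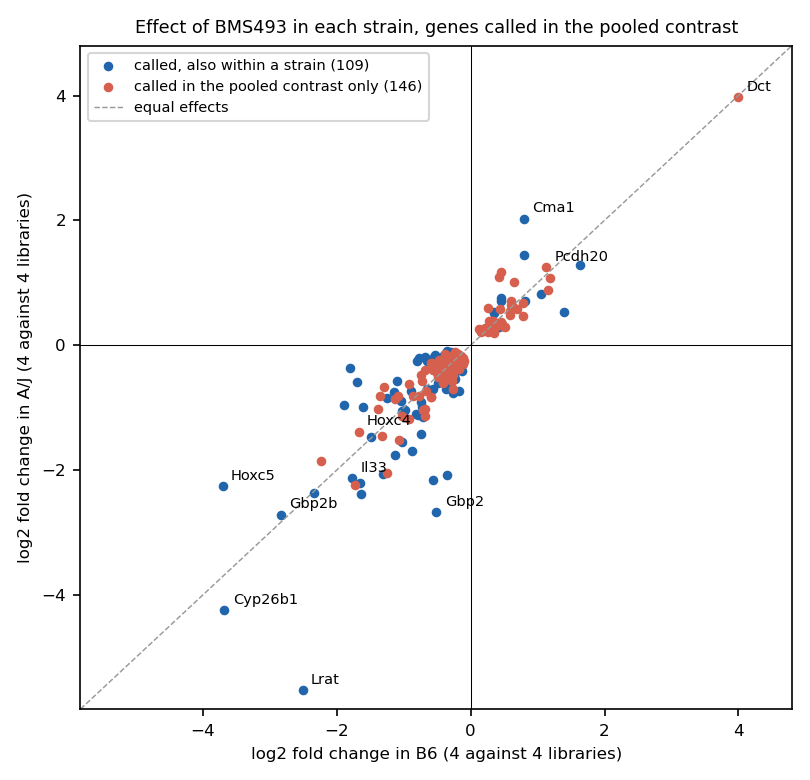
Log2 fold change in A/J (vertical axis) against that in B6 (horizontal axis), 4 against 4 libraries each, for the 255 genes called in the pooled contrast; the dashed line marks equal effects. The 146 genes called only after pooling (red) lie near the line by the way they were chosen, and Gbp2 and Lrat lie below it, with lower values in A/J than in B6.

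The opposite also occurred: 19 genes were called in 1 strain and not after pooling, 11 in B6 and 8 in A/J. Each of the 19 had an unadjusted p under 0.05 for the difference between strains, with a lowest adjusted p of 0.803, so the difference passed for none of them. The low unadjusted p follows in part from the choice of genes that 1 strain calls and the pooled model does not. Gli1, a transcription factor and target of hedgehog signalling, stood at -0.39 in B6 (adjusted p = 0.021), at -0.03 in A/J (adjusted p = 1) and at -0.20 after pooling (adjusted p = 0.186). Dact1, an inhibitor of Wnt signalling, stood at -0.51 in A/J (adjusted p = 0.00874), at 0.07 in B6 (adjusted p = 0.889) and at -0.23 after pooling (adjusted p = 0.342). The mast cell proteases Cpa3 and Tpsb2 were called in A/J at 1.55 and 1.49 and had pooled values of 0.94 each, with adjusted p of 0.068 and 0.0809.

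Genes that handle retinoids came first. Of 39 genes in 4 lists (synthesis and storage, clearance, uptake and binding, receptors and corepressors), 30 were tested and 6 fell: Lrat, Cyp26b1, Dhrs3, Rarb, Stra6 and Nrip1. None rose, and the median of the 30 was -0.01. Over all tested genes 1.16% fell. Pooling added no gene here, since B6 by itself called 5 of the 6, A/J likewise 5, and each was called in at least 1 strain. The 9 members with too few counts to test were Dhrs9, Rpe65, Bco2, Cyp26a1, Cyp26c1, Stra6l, Ttr, Rbp2 and Rbp7.

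Lrat, the acyltransferase that forms the storage esters of retinol, ran from 0.877 to 18.2 CPM in controls (median 8.27) and from 0.127 to 0.558 CPM with BMS493 (median 0.26). Controls of the strains differed: A/J controls lay at 18.2, 18.0, 14.7 and 15.2 CPM and B6 controls at 0.877, 1.41, 1.88 and 1.38 CPM. All 8 BMS493 libraries were nevertheless below all 8 controls. The pooled log2 change was -4.74 (SE 0.35, adjusted p = 1.26e-07), between -2.51 in B6 and -5.53 in A/J. The pooled value thus lies between a pair of strain effects whose difference had an unadjusted p of 9.65e-06 and an adjusted p of 0.0834.

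Clearance genes showed the second largest decrease. Cyp26b1, which oxidises retinoic acid, fell from a control median of 18.1 CPM (13.2 to 27.4) to 1.16 CPM (0.756 to 2.47), with a log2 change of -3.96 (SE 0.21, adjusted p = 2.31e-09). Dhrs3, which reduces retinaldehyde back to retinol, fell from 17.2 CPM (15.4 to 20.7) to 4.72 CPM (3.67 to 9.54), by -1.68 on the log2 scale (SE 0.14, adjusted p = 1.92e-07). For neither gene did the 8 libraries of one treatment overlap with the 8 of the other. The related hydroxylase genes Cyp26a1 and Cyp26c1 had at most 3 and 2 counts in any library and were not tested.

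Of the receptors, Rarb fell and with Nrip1 it made 2 of 10 receptors and corepressors, while the other 8 were not called. Rarb lay at 7.89, 7.97, 8.16 and 9.51 CPM in B6 controls and at 8.73, 10.2, 9.52 and 7.94 CPM in A/J controls. With BMS493 it lay at 2.68, 3.00, 6.68 and 4.42 CPM in B6 and at 2.78, 3.08, 2.56 and 3.98 CPM in A/J. Every BMS493 library was below every control, and B6 replicate 3 came nearest to them. The log2 change was -1.29 (SE 0.15, adjusted p = 8.47e-06). Other genes overlap 38.4% of the Rarb exons in the annotation, so reads there can be lost as ambiguous.

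Rara stood at -0.01 (SE 0.05, adjusted p = 0.98), Rxra at 0.05 (SE 0.04, adjusted p = 0.723) and Rarg at -0.22 (SE 0.06, adjusted p = 0.0885). Nrip1, a nuclear receptor corepressor that retinoic acid induces, fell by 0.26 on the log2 scale (SE 0.06, adjusted p = 0.0281). Its call was kept in 8 of the 16 fits that each omitted 1 library, and the adjusted p reached 0.075 without A/J BMS493 replicate 3.

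Stra6, the membrane receptor that takes up retinol, fell from a control median of 7.32 CPM to 4.35 CPM, by 0.93 on the log2 scale (SE 0.16, adjusted p = 0.00171). The single-strain values were -1.15 (adjusted p = 0.0268) and, not called, -0.76 in A/J (adjusted p = 0.172). Among binding proteins Crabp2 stood at -0.44 (SE 0.18, adjusted p = 0.344) and Crabp1 at 0.38 (SE 0.17, adjusted p = 0.383). The synthesis enzymes were not called: the main embryonic retinaldehyde dehydrogenase Aldh1a2 stood at 0.07 (SE 0.12, adjusted p = 0.887), Aldh1a3 at 0.47 (SE 0.23, adjusted p = 0.458) and the retinol dehydrogenase Rdh10 at -0.12 (SE 0.07, adjusted p = 0.55).

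**Figure D3:**
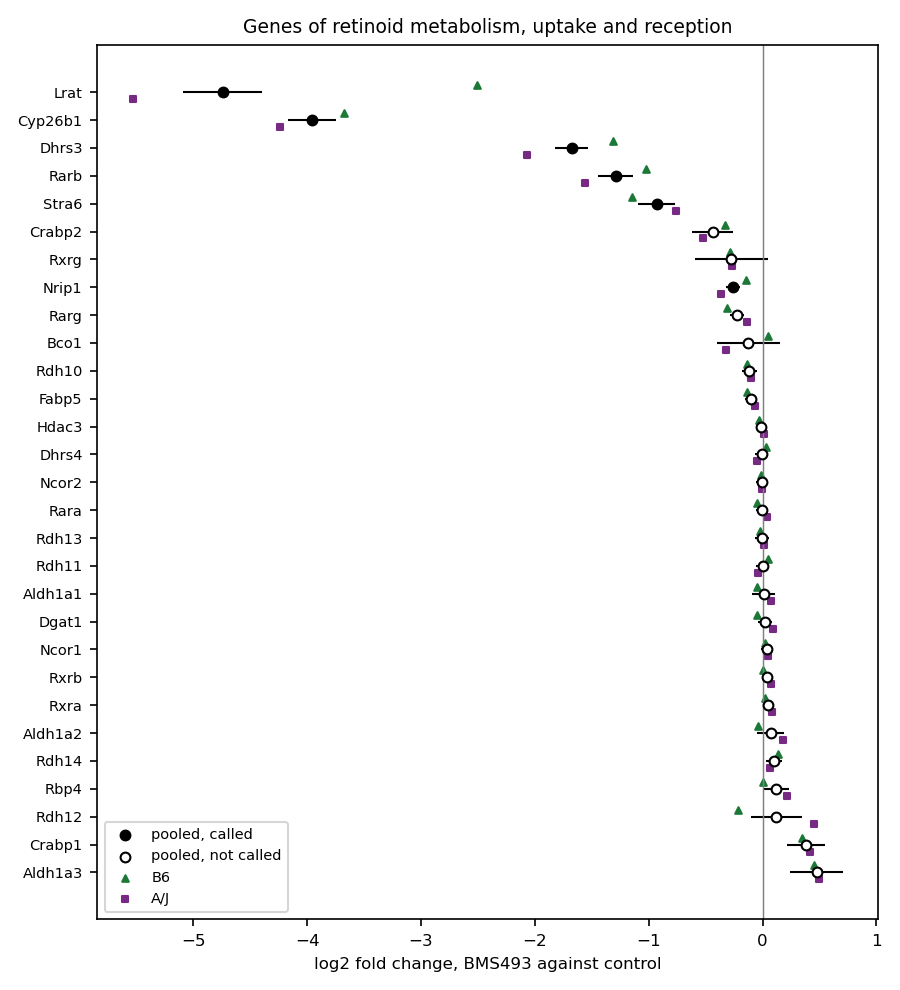
Log2 fold change of BMS493 against control for 29 of the 30 tested genes of the 4 retinoid lists (vertical axis, ordered by the pooled value). Circles with bars show the pooled value ± SE (filled where called), triangles B6 and squares A/J; the 6 filled circles all lie below 0, and the 23 open ones lie between -0.44 and 0.47.

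Retinoic acid target genes outside these 4 lists gave 6 decreases among 15 tested, against 1.16% of all tested genes, and none higher, at a median of -0.19. The list was built from known targets, so a fall in it is no independent evidence of direction. Tshz3, a zinc finger factor of smooth muscle development, fell by 0.49 on the log2 scale (adjusted p = 0.000246), and of the single strains only A/J had called it (B6 adjusted p = 0.0564). Hoxa5 had been called in both strains.

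The 3 of 15 added by pooling, against 0.845% of all tested genes, were Meis2, Tgm2 and Hoxa4. Meis2, a homeodomain partner of Hox proteins, went from a control median of 75.1 CPM to 60.1 CPM, with a log2 change of -0.30 (SE 0.07, adjusted p = 0.0131) after -0.35 in B6 (adjusted p = 0.12) and -0.25 in A/J (adjusted p = 0.502). Tgm2, a protein crosslinking enzyme, stood at -0.22 (SE 0.05, adjusted p = 0.0313). The Tgm2 call was kept in 7 of the 16 fits that omitted 1 library, and the adjusted p reached 0.0842 without A/J control replicate 1. With only library numbers 9 to 16 its value was -0.13 (adjusted p = 0.778), and 21.8% of its exons overlap other genes.

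Hox genes give cells their position along the body axis. Of 21 in the list 16 were tested and 7 fell, none rose, and the median was -0.41, where 1.16% of all tested genes fell and the median was 0.0016. Pooling took the count from 2 in B6 and 1 in A/J to 7, with 5 of the 7 called in neither strain alone (0.845% of all tested genes). By cluster the calls were 5 of 7 tested Hoxa genes, both tested Hoxc genes and 0 of 7 tested Hoxb genes, whose values ran from -0.39 to 0.04 with a lowest adjusted p of 0.0659 for Hoxb8. At the share called lower over all genes, 0 of 7 is near the background, and the difference between clusters was not tested.

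Hoxc4 had the largest change among the genes added by pooling that the naming rule covers. B6 controls lay at 2.32, 2.15, 2.82 and 2.16 CPM and B6 BMS493 libraries at 0.909, 0.169, 1.60 and 0.459 CPM. A/J controls lay at 4.78, 4.81, 4.60 and 7.32 CPM and A/J BMS493 libraries at 2.92, 1.89, 1.16 and 2.22 CPM. Treatments separated in each strain, although A/J BMS493 libraries reached the level of B6 controls. The log2 change was -1.50 (SE 0.24, adjusted p = 0.000805), after -1.67 in B6 (adjusted p = 0.065) and -1.38 in A/J (adjusted p = 0.0556).

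Its neighbour Hoxc5 fell by 2.66 on the log2 scale (SE 0.45, adjusted p = 0.00138), from 0.516 to 2.41 CPM in controls to between 0 and 0.88 CPM. At this depth 3 of the 8 BMS493 libraries held no Hoxc5 read, and the value was -2.06 (adjusted p = 0.185) with only library numbers 1 to 8 and -4.17 (adjusted p = 0.0041) with numbers 9 to 16.

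In the Hoxa cluster the values of called genes ran from -0.43 to -1.06. Hoxa3 went from 21.9, 19.95, 20.6 and 18.7 CPM in B6 controls to 16.1, 14.9, 10.6 and 18.1 CPM, and from 24.8, 21.8, 23.9 and 20.3 CPM in A/J controls to 16.7, 16.5, 17.8 and 16.7 CPM. No BMS493 library reached any control. Its log2 change of -0.43 (SE 0.08, adjusted p = 0.0024) was nearly the same in B6 (-0.44, adjusted p = 0.114) and A/J (-0.43, adjusted p = 0.121).

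Hoxa6 stood at -0.80 (adjusted p = 0.0146) and Hoxa7 at -1.06 (adjusted p = 0.0144), each from values of similar sign in both strains that were not called there. Hoxa4 stood at -0.43 (adjusted p = 0.0231), a call kept in 12 of the 16 fits that omitted 1 library, and the adjusted p reached 0.0639 without A/J BMS493 replicate 2. Hoxa5, which lung development requires, fell by 0.46 (SE 0.05, adjusted p = 2.06e-06), from a control median of 132 CPM to 98.4 CPM with no overlap over the 16 libraries. Other annotated genes overlap 27.1% of the exon length of Hoxa3, 16% of Hoxa4 and 20.4% of Hoxa7, and the counts do not separate strands.

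**Figure D4:**
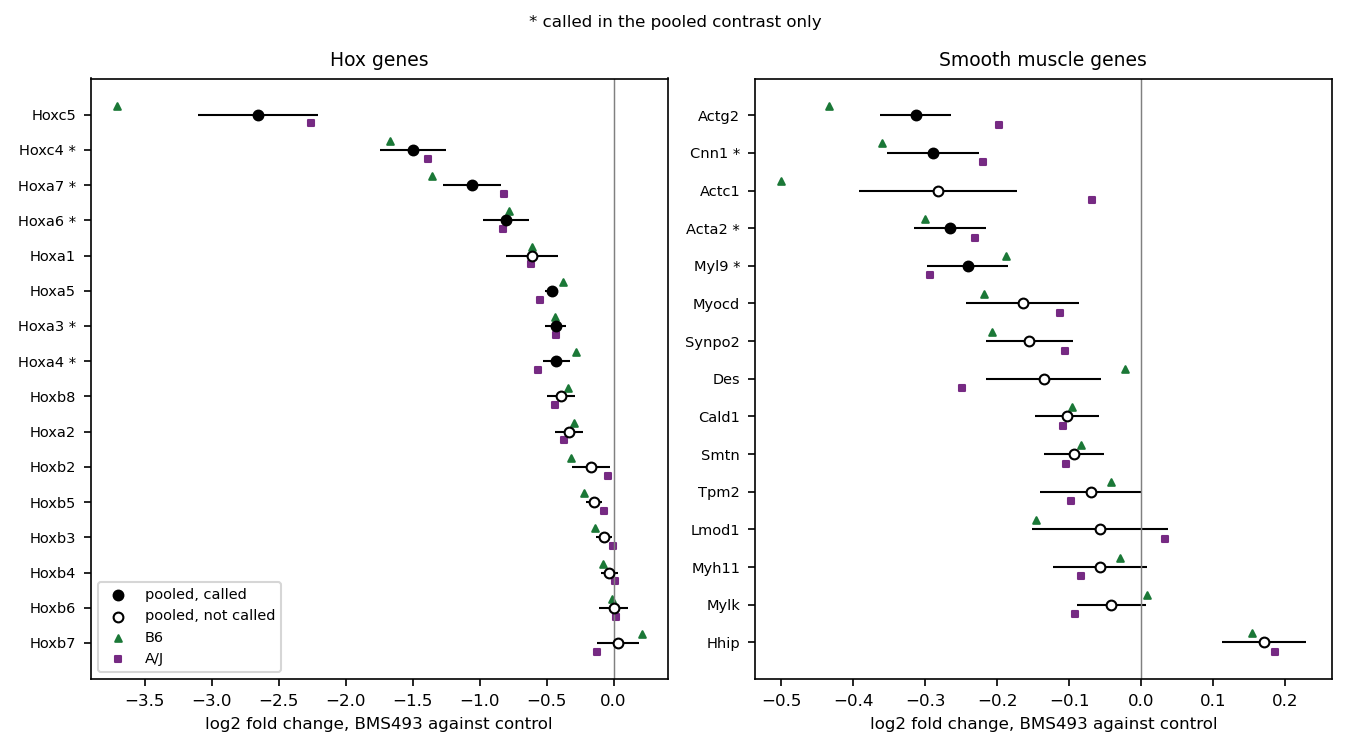
Log2 fold change of BMS493 against control for the 16 tested Hox genes (left) and the 15 tested smooth muscle genes (right), on different horizontal scales. Circles with bars show the pooled value ± SE (filled where called), triangles B6 and squares A/J, and an asterisk marks genes called only after pooling; 7 Hox and 4 smooth muscle genes are filled, all below 0.

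Called genes also sat next to each other along chromosomes. Among coding genes in annotation order, 40 of 192 called lower (20.8%) had another called lower gene within 3 tested genes, where 7.24% of all 14154 tested coding genes did, and for called higher genes it was 8 of 54 (14.8%) against 2.19%. The Hoxa genes gave the longest run, from Skap2 through Hoxa3, 5730596B20Rik, Hoxa4, Hoxa5 and Hoxa6 to Hoxa7 on chromosome 6. On chromosome 3 the run of Tdo2 (-1.29), Gucy1a1 (-0.18), Rbm46 (-1.12), Lrat (-4.74) and Sfrp2 (-0.38) surrounds the most lowered gene. Other neighbours were the fatty acid desaturase genes Fads1 and Fads2 (both -0.18, both added by pooling), Stra6 (-0.93) with Islr (-0.20), and the matrix proteoglycan genes Dcn (-0.53) and Lum (-0.43). These shares are descriptions, and shared or overlapping transcription of neighbours was not tested.

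Smooth muscle genes were tested next, since the title of the study concerns airway hyperresponsiveness. Of 18 in the list 15 were tested and 4 fell, where 1.16% of all tested genes did: Actg2, Cnn1, Acta2 and Myl9. None rose, and the median was -0.14, with 14 of 15 values below 0. Within a strain, only Actg2 in B6 had been called, so 3 of the 4 came from pooling, which added 0.845% of all tested genes.

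Acta2, smooth muscle actin, lay at 590, 594, 556 and 592 CPM in B6 controls and at 421, 508, 502 and 463 CPM with BMS493. In A/J it lay at 489, 450, 490 and 406 CPM in controls and at 413, 426, 352 and 373 CPM with BMS493. The libraries separated in B6, while in A/J the lowest control lay below the pair of highest BMS493 libraries. The change was a decrease of 16.8%, at a log2 change of -0.27 (SE 0.05, adjusted p = 0.00319), after -0.30 in B6 (adjusted p = 0.0657) and -0.23 in A/J (adjusted p = 0.258).

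Cnn1, calponin, had a control median of 38.8 CPM and a BMS493 median of 31.8 CPM, with a log2 change of -0.29 (SE 0.06, adjusted p = 0.0151), and with only library numbers 9 to 16 it stood at -0.18 (adjusted p = 0.744). Myl9, a myosin light chain, stood at -0.24 (SE 0.06, adjusted p = 0.0231), and its call was kept in 8 of the 16 fits that omitted 1 library (highest adjusted p 0.0642 without A/J BMS493 replicate 2). Myh11, smooth muscle myosin, stood at -0.06 (SE 0.07, adjusted p = 0.814), and Myocd, the coactivator that drives the programme, at -0.16 (SE 0.08, adjusted p = 0.449). In whole lungs, fewer cells of a type and less RNA per cell cannot be told apart.

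Of 12 tested receptors that set airway tone 1 was higher and 1 lower, against 0.313% and 1.16% of all tested genes. Chrm2, the muscarinic receptor M2, rose from a control median of 6.70 CPM to 13.1 CPM, with a log2 change of 0.76 (SE 0.12, adjusted p = 0.000449). B6 values were 6.70, 4.09, 5.49 and 6.16 CPM in controls and 11.97, 10.8, 6.74 and 9.25 CPM with BMS493, and A/J values were 10.9, 8.48, 6.70 and 11.2 CPM against 15.5, 15.4, 15.6 and 14.2 CPM. The treatments separated in each strain. It had passed in B6 at an adjusted p of 0.0393 and not in A/J, at 0.0564 and a similar 0.71. The related Chrm3 stood at -0.21 (SE 0.19, adjusted p = 0.767).

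Tacr2, a tachykinin receptor, was lower only after pooling, at -1.05 (SE 0.25, adjusted p = 0.0259), from a control median of 1.54 CPM to 0.755 CPM. Control and BMS493 libraries overlapped in both strains. Its call was kept in 9 of the 16 fits that omitted 1 library, and the adjusted p reached 0.0898 without B6 control replicate 2. Outside the lists, Chrna4, a nicotinic acetylcholine receptor subunit, fell by 0.94 on the log2 scale (SE 0.18, adjusted p = 0.00351), from 1.70 to 2.89 CPM in controls to between 0.634 and 1.61 CPM, with no overlap over the 16 libraries.

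Of 16 TGF-beta genes 2 were lower, where 1.16% of all tested genes were. Tgfb3, a ligand, stood at -0.23 (adjusted p = 0.033) and was kept in 7 of the 16 fits that omitted 1 library (up to 0.0897 without B6 control replicate 2). Smad3, the signal transducer, stood at -0.16 (SE 0.04, adjusted p = 0.0467), a decrease of 10.4% that pooling added. It was kept in 4 of those 16 fits, and the adjusted p reached 0.114 without B6 control replicate 4.

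Of 32 FGF, Wnt, hedgehog and BMP genes, 2 were higher and 1 lower, where 1.48% of all tested genes were called in either direction. Sfrp1, a secreted Wnt inhibitor, fell from a control median of 83.8 CPM to 45.7 CPM, by 1.04 on the log2 scale (SE 0.13, adjusted p = 0.000449), with no overlap over the 16 libraries. The pair of higher genes came from pooling and belong to BMP signalling. Id1, a BMP target, stood at 0.38 (SE 0.08, adjusted p = 0.0165), and of the 16 fits that omitted 1 library only that without A/J control replicate 4 lost it (0.0507). Grem1, a secreted BMP antagonist, stood at 0.78 (SE 0.20, adjusted p = 0.0479) and was kept in 3 of the 16 fits that omitted 1 library (up to 0.135 without A/J BMS493 replicate 4).

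In the lung mesenchyme list 1 of 14 fell, against 1.16% of all tested genes: Foxf1, a transcription factor of that tissue, by 0.33 on the log2 scale (SE 0.06, adjusted p = 0.00276), from 184 to 215 CPM in controls to 119 to 181 CPM with no overlap. In the mesothelium list 1 of 8 fell, and it was among the 0.845% of all tested genes that pooling added: Upk3b, at -0.38 (SE 0.08, adjusted p = 0.0089), with Wt1 at -0.41 (adjusted p = 0.0708) and Msln at 0.45 (adjusted p = 0.694). The summed level of the mesothelium list was 160 to 176 CPM in B6 controls and 151 to 175 CPM with BMS493, and 163 to 168 CPM in A/J controls and 132 to 151 CPM with BMS493.

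Among cytokines 2 of 12 fell and 1 rose, against 1.16% and 0.313% of all tested genes. Il33, an alarmin, fell from a control median of 3.91 CPM (2.95 to 4.72) to 1.05 CPM (0.22 to 1.67), by 1.95 on the log2 scale (SE 0.21, adjusted p = 2.06e-06). Tnfsf13b, the B cell factor BAFF, whose promoter is printed above, fell from 7.84 CPM (5.11 to 12.1) to 2.13 CPM (0.634 to 2.88), by 2.04 (SE 0.23, adjusted p = 3.04e-05). For both genes all BMS493 libraries lay below all controls.

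Kitl, the ligand of the receptor KIT on mast cells and pigment cell precursors, was the cytokine gene that pooling added. It lay at 142, 138, 138 and 132 CPM in B6 controls and 144, 155, 160 and 144 CPM with BMS493. In A/J it lay at 109, 112, 101 and 117 CPM in controls and 126, 151, 123 and 128 CPM with BMS493. Treatments separated in each strain by a small margin, at a log2 change of 0.19 (SE 0.05, adjusted p = 0.028), and the call was kept in 11 of the 16 fits that omitted 1 library (up to 0.0696 without A/J BMS493 replicate 2).

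Of 7 mast cell genes 1 rose after pooling, against 0.313% of all tested genes. Cma1, the chymase, stood at 1.39 (SE 0.28, adjusted p = 0.00945), with 0.79 in B6 (adjusted p = 0.463) and 2.03 in A/J (adjusted p = 0.00281). The list's median was 0.94, while Kit itself stood at -0.22 (adjusted p = 0.309). Of 25 interferon and guanylate-binding genes 3 were lower, against 1.16% of all tested genes, and the same 3 were called in A/J by itself (0.486% of all) and not in B6: Gbp2b at -2.72, Gbp2 at -1.71 and Gbp5 at -1.41. Gbp2b held no reads in any B6 BMS493 library and in 2 of the 4 B6 controls, so its pooled value is that of A/J. The Gbp5 call was kept in 2 of the 16 fits that omitted 1 library (highest adjusted p 0.132 without A/J BMS493 replicate 4), and the value was -0.92 (adjusted p = 0.685) with only library numbers 1 to 8 and -2.06 (adjusted p = 0.07) with numbers 9 to 16. The genes Gbp2 and Gbp2b are close copies between which reads can be split.

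Genes added by pooling with the lowest adjusted p, besides Hoxc4 and Hoxa3, were Lsp1, Hic1 and Glipr2. Lsp1, an actin-binding protein of leukocytes, went from 127, 129, 119 and 133 CPM in B6 controls to 87.7, 100.1, 110 and 104 CPM, and from 122, 118, 131 and 99.7 CPM in A/J controls to 99.5, 91.0, 85.2 and 106 CPM. The treatments separated in B6, and in A/J 1 control lay among the BMS493 libraries. The log2 change was -0.32 (SE 0.06, adjusted p = 0.00126).

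Hic1, a transcriptional repressor of mesenchymal progenitors, went from a control median of 132 CPM to 85.2 CPM, separated in each strain, at -0.51 (SE 0.08, adjusted p = 0.0028). The size differed with the library numbers: -0.74 with numbers 1 to 8 (adjusted p = 5.54e-05) and -0.29 with numbers 9 to 16 (adjusted p = 0.225). Glipr2 stood at -0.36 (SE 0.07, adjusted p = 0.00283).

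Among coding genes with a symbol and a mean of at least 1 CPM, the largest decreases added by pooling, after Hoxc4, were those of Tdo2, Calb2, Hoxa7 and Tacr2. Calb2, the calcium-binding protein calretinin, lay at 15.1, 16.6, 13.6 and 16.8 CPM in B6 controls and at 11.01, 2.75, 6.34 and 3.68 CPM with BMS493. In A/J it lay at 14.8, 16.1, 15.5 and 14.6 CPM in controls and at 9.28, 7.39, 4.98 and 8.26 CPM with BMS493. All 8 BMS493 libraries were below all 8 controls, and the B6 BMS493 libraries were the most spread. The change of -1.20 (SE 0.21, adjusted p = 0.0067) had missed the threshold in B6 (-1.39, adjusted p = 0.078) and A/J (-1.03, adjusted p = 0.258).

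Tdo2, which opens the ring of tryptophan, stood at -1.29 (SE 0.26, adjusted p = 0.0067), with -0.79 for library numbers 1 to 8 (adjusted p = 0.437) and -1.96 for numbers 9 to 16 (adjusted p = 0.0365). Below them came the ephrin receptor Epha8 at -0.93 (adjusted p = 0.0249), the butyrophilin Btn2a2 at -0.92 (adjusted p = 0.0388), the Nogo receptor homolog Rtn4rl2 at -0.89 (adjusted p = 0.014) and Shisa3 at -0.84 (adjusted p = 0.00547). Epha8 was kept in 12 and Btn2a2 in 5 of the 16 fits that omitted 1 library, and the adjusted p reached 0.0607 without A/J BMS493 replicate 2 and 0.102 without B6 control replicate 4.

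**Figure D5:**
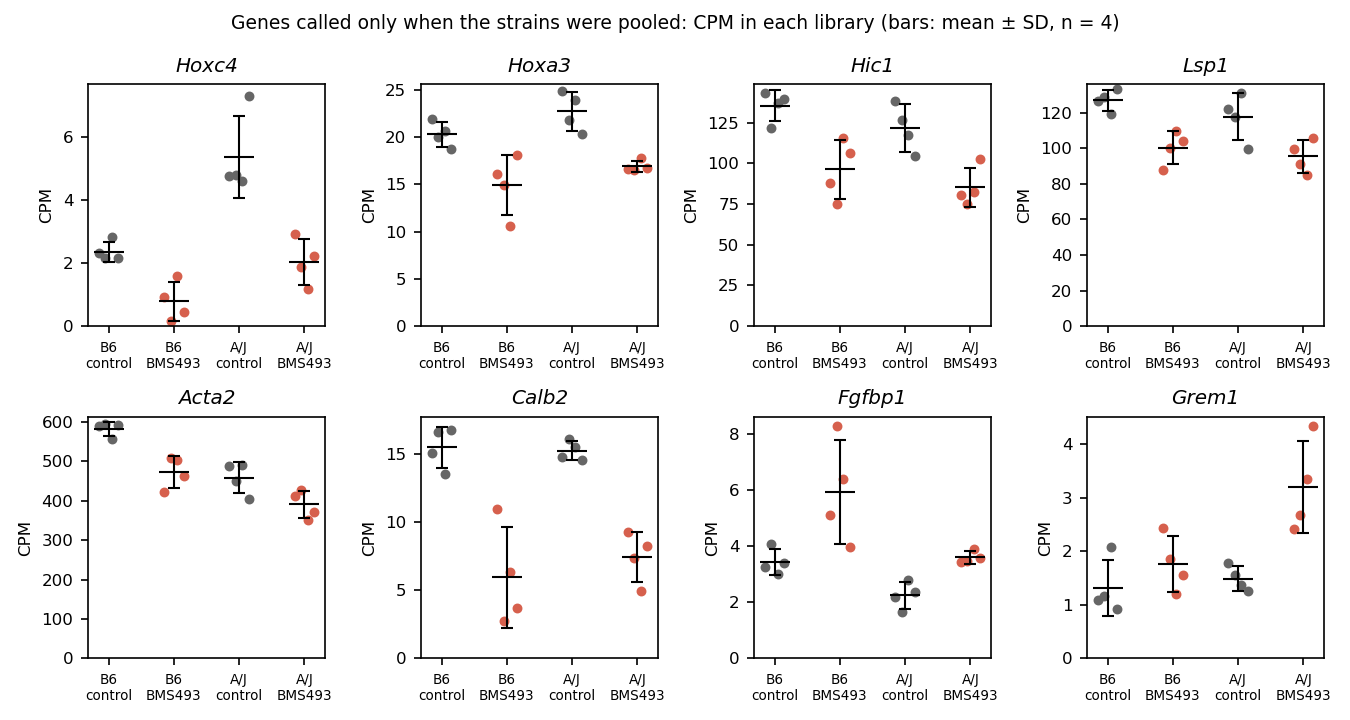
CPM in each library (vertical axes, each starting at 0) for 8 genes called only after pooling; grey points are controls, red points BMS493, and bars show the mean ± SD of 4 libraries. Hoxc4, Hoxa3, Hic1 and Calb2 separate by treatment in both strains, Lsp1 and Acta2 in B6, and Fgfbp1 and Grem1, which are higher with BMS493, in A/J.

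Of the genes added by pooling 42 were higher and 104 lower, but without the filter on low counts 189 were higher and 143 lower. Fgfbp1, a carrier of fibroblast growth factors, lay at 3.25, 4.09, 3.02 and 3.41 CPM in B6 controls and 5.10, 8.29, 6.41 and 3.96 CPM with BMS493. A/J values were 2.17, 1.65, 2.78 and 2.38 CPM in controls against 3.43, 3.48, 3.91 and 3.58 CPM with BMS493. Groups separated in A/J and overlapped in B6 by 1 library. Its log2 change was 0.74 (SE 0.15, adjusted p = 0.00516), called in all 16 fits that omitted 1 library.

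Pcdh20, a protocadherin, stood at 1.17 (SE 0.25, adjusted p = 0.0119) and Pcdhac2, another, at 0.65 (SE 0.15, adjusted p = 0.0224). Of the 16 fits that omitted 1 library, Pcdh20 was lost only without B6 BMS493 replicate 2 (adjusted p = 0.0576), the library at 8.63 CPM against 2.07 to 5.01 CPM in the other 3. Pcdhac2 was kept in 13 of the 16 such fits (up to 0.0674 without B6 control replicate 2), and other annotated genes overlap 48.6% of its exon length. Kcns3, a potassium channel subunit, stood at 0.64 (SE 0.14, adjusted p = 0.016), and of these 16 fits only that without B6 control replicate 2 lost it (0.0510). With the counts of the first strand only, the edgeR adjusted p was 0.0937 for Pcdh20, 0.0507 for Pcdhac2 and 0.171 for Kcns3.

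Other large increases lay close to the threshold. Cp, ceruloplasmin, stood at 1.02 (SE 0.26, adjusted p = 0.0441) but at 0.26 (adjusted p = 0.686) with the counts of the first strand only, and was kept in 4 of the 16 fits that omitted 1 library. AC131692.1 at 1.12 (adjusted p = 0.0415), Caln1, a calcium-binding protein, at 0.85 (adjusted p = 0.0418) and Ube2ql1, a ubiquitin-conjugating enzyme, at 0.84 (adjusted p = 0.0432) were kept in 6, 5 and 3 of these. Their highest adjusted p were 0.141 for Cp without B6 BMS493 replicate 2, 0.103 for AC131692.1 without A/J BMS493 replicate 3, 0.095 for Caln1 without A/J BMS493 replicate 2 and 0.105 for Ube2ql1 without A/J BMS493 replicate 4. Over the 16 fits the log2 change ran from 0.91 to 1.24 for AC131692.1, from 0.72 to 0.93 for Caln1, from 0.71 to 0.97 for Ube2ql1 and from 0.77 to 1.15 for Cp. Control and BMS493 libraries did not overlap in either strain for AC131692.1, and did not overlap in A/J for the other 3. Plxdc1, a plexin domain membrane protein already called in both strains, was the highest of all called genes above 1 CPM, at 1.42 (SE 0.18, adjusted p = 2.12e-05).

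At the threshold lay Svep1, a matrix protein, inside at an adjusted p of 0.0492 (0.27, SE 0.07) and Ndnf, a secreted neurotrophic factor, outside at 0.0503 (0.47, SE 0.11). Control and BMS493 libraries of Ndnf did not overlap in either strain, while those of Svep1 overlapped in both. Svep1 was kept in 3 of the 16 fits that omitted 1 library, and the adjusted p reached 0.115 without B6 control replicate 2. Of all 146 genes added by pooling, 50 were called in every one of the 16 fits, 72 in at least 12 and 53 in fewer than 8.

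In 15 lists none of the 148 tested genes was called by edgeR after pooling, which is near the 1.48% called over all tested genes. They mark distal and proximal epithelium, blood and lymphatic endothelium, neural crest and neurons, macrophages, red cells, liver, heart, skeletal muscle, cartilage, oesophagus and stomach, thymus, the cell cycle, and collagens with elastic fibre genes. In A/J by itself 1 of the 148, in the skeletal muscle list, was called, against 0.486% of all tested genes. The cell cycle list had a median of 0.0039 over 21 tested genes and ran from -0.15 to 0.13. The distal epithelium list had a median of 0.35 over 11, with the surfactant gene Sftpc at 0.45 (SE 0.29, adjusted p = 0.635). Sftpc lay at 179, 867, 590 and 288 CPM in B6 with BMS493, highest in replicate 2, and without that library the list's median was 0.17, with none called in that fit either. The summed level of the list was 962 to 1195 CPM in B6 controls, 971 to 2005 CPM in B6 with BMS493, 791 to 961 CPM in A/J controls and 759 to 948 CPM in A/J with BMS493. The part of these cells in the other results was not tested.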

How the data were processed

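Poly(A) RNA of E14.5 lungs was sequenced in 16 libraries, 4 per combination of strain and treatment. The authors deposited gene counts per library, made with STAR on GRCm39 after cutadapt and FastQC, per the submitters' processing notes; the versions and the annotation are not given in the sources used here. The counts that ignore strand were used, since reads split evenly between strands. Gene symbols and types came from GENCODE release M21, which is built on GRCm38, not the build of the counts, and the only coordinates printed are those of 2 promoter windows; 51884 of 57180 genes matched, holding 98.9% of the counts. Promoters and their coordinates are those of RefSeq on GRCm38.p6.

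Counts were filtered with filterByExpr, scaled by TMM and tested with edgeR 4.0.16 (quasi-likelihood F-test, R 4.3.3), with strain as a covariate and Benjamini-Hochberg adjustment over 17276 genes. The effects within a strain and their difference came from a fit over the 4 groups. CPM use TMM library sizes. A prior count of 2 entered only the log2 CPM behind the principal components and the correlations of libraries, and fitted log2 fold changes used the edgeR default. Calls have an adjusted p under 0.05, and a gene added by pooling is one called in neither strain. Scripts were tested on simulated data. The alternatives were RLE scaling, DESeq2 1.42.0, limma voom (3.58.1) with quality weights, other filters, no strain covariate, the mean of the strain effects, replicate blocks, library sets, the first-strand counts, 1 surrogate variable (sva 3.50.0) and each library left out; those of the difference between strains were chosen after seeing the data. Assigned fragments were 15207539 to 24146224 per library.

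Members and lists were chosen with earlier results of these data known. Named genes were coding genes with a symbol and a mean CPM of at least 1: of the genes added by pooling the 10 lowest and 10 highest fold changes and the 5 lowest adjusted p, of all calls the 3 lowest and 3 highest fold changes; whatever their level, the retinoid lists and every called list member; and the genes on either side of the threshold. Neighbours of called genes, genes called in 1 strain and pigment cell genes were named after their values were seen. The values of 3 genes that these rules cover are not reported here, though they stay in the counts.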

Additional observations from a re-analysis of the deposited data

Results flagged for a closer look

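Of 224 groups of 4 values of named genes, 14 held a library whose gap to its nearest neighbour, as a share of the range of its group, was above the 95% critical value of Dixon's test, which chance passes in about 1 in 20 groups. Among B6 controls these were Stra6 (0.958, replicate 3 at 6.58 CPM), Acta2 (0.907, replicate 3), Dhrs3 (0.902, replicate 2), Nrip1 (0.869, replicate 1), Myl9 (0.836, replicate 3) and Rarb (0.833, replicate 4). Among A/J controls they were Hoxa6 (0.98, replicate 1 at 12.6 CPM), Pcdhac2 (0.968, replicate 4 at 1.42 CPM), Hoxc4 (0.925, replicate 4 at 7.32 CPM) and Svep1 (0.897, replicate 3). In B6 with BMS493 it was Cyp26b1 (0.922, replicate 3 at 2.47 CPM). In A/J with BMS493 they were Smad3 (0.942, replicate 4), Chrm2 (0.899, replicate 4) and Hoxa3 (0.863, replicate 3).

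Gbp2, an interferon-induced guanylate-binding protein, was the gene whose BMS493 effect differed between the strains by the test of the difference in edgeR, at -2.16 on the log2 scale for A/J minus B6 (adjusted p = 0.000737). It stood at -2.67 in A/J, from 9.501, 9.65, 10.8 and 11.9 CPM in controls to 2.18, 1.41, 1.63 and 1.31 CPM, and at -0.51 in B6, from 2.01, 3.02, 2.42 and 2.49 CPM to 1.77, 2.11, 1.54 and 1.49 CPM. A/J controls were above B6 controls, and the BMS493 libraries of the strains overlapped.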

How the results depend on the processing

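The 255 pooled calls became 402 with DESeq2, 385 with voom quality weights, 636 without a filter on low counts, 62 without the strain covariate, and 93 and 59 with only library numbers 1 to 8 and 9 to 16. Leaving out 1 library gave 179 to 343. The 146 genes added by pooling became 332 without the filter, 11 without the covariate, and 60 and 40 with those library numbers, and 94 to 154 with 1 library left out. Higher genes were 21.2% of the pooled calls, 31.1% with DESeq2 and 46.9% without the filter, but 11.3% without the strain covariate and 10.75% with numbers 1 to 8. Among the genes added by pooling they were 28.8%, 45.5% with DESeq2 and 56.9% without the filter, where the direction of the majority thus turned (189 higher, 143 lower). Without the covariate they were 9.09% of the added genes, and with numbers 1 to 8 they were 15%. The 1 gene that differed between strains became 12 without the filter, 0 with numbers 1 to 8 (928 at an unadjusted p under 0.05) and 0 with numbers 9 to 16 (388), and 1 to 2 with 1 library left out (2 without B6 control replicate 3 and without A/J BMS493 replicate 3). The cause of these shifts was not tested, except that fewer libraries entered some fits.

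Same-numbered libraries of a strain showed little shared deviation from their group means (correlations of -0.0669 to 0.0899, and 3 of 8 pairs best with their own number). What the numbers mark is not given in the labels, and such correlations cannot exclude a shared day or handling. With a replicate block by strain and number, 218 genes were called and 130 were added by pooling, and with a block by number 272 and 158. The difference between strains gave 1 gene under both blocks.

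Of 58 named calls 36 were kept in all 16 fits that left out 1 library and 6 in every setting, and none reversed. The 25 named genes that were not called gained a call in 23 combinations of gene and setting, among them Ndnf in 10, Rarg in 4 and Crabp2 in 1 (without the filter). The median of the distal epithelium list with each library left out, an alternative chosen after seeing the data, ran from 0.17 to 0.48. Low genes had a larger SE, and below 10 CPM only changes of 0.32 or more on the log2 scale were called among genes of at least 1 CPM. The part of sequencing depth in this was not tested.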

Other observations

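The largest increase that pooling added was that of Dct, an enzyme of melanin synthesis in pigment cells, which lay under the level required of named genes and was chosen after its values were seen. Its raw counts were 3, 2, 1 and 1 in B6 controls and 30, 21, 10 and 52 in B6 with BMS493, and 1, 0, 1 and 0 in A/J controls against 0, 0, 34 and 6 in A/J with BMS493. Counts were higher in all 4 B6 libraries with BMS493 and in 2 of the 4 from A/J, at a pooled log2 fold change of 4.00 (SE 0.79, edgeR adjusted p = 0.0103). Tyr, tyrosinase, had 0 counts in all 8 controls, 10, 5, 0 and 10 in B6 with BMS493 and 0, 0, 5 and 2 in A/J with BMS493, too few to pass the filter.

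Other pigment cell genes, also chosen after Dct was seen, gave few counts. Summed over 4 libraries in the order B6 control, B6 BMS493, A/J control and A/J BMS493, Pmel had 72, 136, 62 and 86 counts, Tyrp1 0, 8, 0 and 0, Slc45a2 2, 13, 0 and 6, Trpm1 0, 13, 1 and 0, and Mlana 1, 3, 0 and 4. Gpr143 had 5, 19, 17 and 11 and Oca2 0, 0, 3 and 0, both lower with BMS493 in A/J. Mitf, the transcription factor of the lineage that other cells also express, had 239, 248, 313 and 346.

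Among further genes that pooling added, Cited2, a transcriptional coregulator, stood at 0.35 (edgeR adjusted p = 0.00392), Notum, a secreted Wnt inhibitor, at 0.62 (adjusted p = 0.0125), and Ncoa3, a nuclear receptor coactivator, at -0.27 (adjusted p = 0.0089). They were chosen after their values were seen.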
